A study of Mus musculus with 28 samples.

Results

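The 45 genes described here encode enzymes with which the liver breaks down amino acids and passes on single-carbon and methyl groups. They were listed by symbol and pathway: 4 act on histidine, 2 on serine and threonine, 6 on glutamine or in transamination, 4 on phenylalanine and tyrosine, 5 on tryptophan, 1 on lysine, 9 on the branched-chain amino acids, 3 on proline and hydroxyproline, 3 form the glycine cleavage system, and 8 belong to methionine and one-carbon metabolism. Urea cycle genes were left out. All 45 were found among the 21935 genes of the count table, and 45 of 45 passed the filter on low counts that left 12580 genes for testing.

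Hepatic messenger RNA was sequenced in 28 male *ob/ob* mice of the strain B6.V-Lepob/JRj, which lack leptin in every group. The mice were obtained at 5 weeks of age and fed the AMLN diet (high in fat, fructose, and cholesterol) for 14 weeks to induce nonalcoholic steatohepatitis (NASH). They were then dosed orally once daily for 2 weeks, during which the diet continued. Vehicle was given to 10 of the sequenced mice, obeticholic acid (OCA) 30 mg/kg to 9, and INT-787 30 mg/kg to 9, whereas the methods list 10 mice per group at randomization. Both drugs are agonists of the farnesoid X receptor (FXR), a nuclear receptor for bile acids, and the comparisons ask how far each drug, and one drug against the other at the matched dose, changed hepatic expression of these enzymes. The model limits what can be read from it: all mice were male, leptin deficient, and on one diet, each drug was given at a single dose, and RNA came from whole liver.

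Amino acids that are not used for protein lose their nitrogen by transamination or deamination, mostly in hepatocytes, and the carbon skeletons enter gluconeogenesis, ketone synthesis, or the citric acid cycle. Histidine, serine, glycine, and choline derivatives such as sarcosine also donate single-carbon units to folate. Methionine is converted to S-adenosylmethionine, the methyl donor of the cell, and the homocysteine left behind is either methylated again with betaine or led through cystathionine to cysteine.

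Levels are given in CPM, counts scaled to a common library total after TMM scaling, which corrects totals for differences in RNA composition. Unless another tool is named, folds, standard errors (SE), 95% intervals, and adjusted *p* values come from edgeR's quasi-likelihood test over the 12580 genes with Benjamini-Hochberg adjustment, and calls rest on a cutoff of 0.05 for that adjusted *p*. Where group ranges follow each other unnamed the order is vehicle, OCA, INT-787, and where changes do it is INT-787, then OCA. Total counts ranged from 1009593 to 22421506 per mouse, with a median of 14864947. Vehicle replicate 6 had the total of 1009593, and the next lowest mouse had 9313260. Vehicle replicate 5 also stood apart: 43 of 11941 genes were more than 4 times higher in it than in every other mouse, against 0 to 2 genes in each of the other mice. The lowest count of any of the 45 genes was 10, for *Sdsl* in vehicle replicate 6, and outside that mouse it was 76. As a check of the tissue, 9 of 10 hepatocyte markers were matched and tested, with a summed level of 83017 to 164708 CPM in vehicle mice, whereas 7 genes of pancreatic acinar cells summed to 10.1 to 19.9 CPM there. Of those 7, *Amy2a5* and *Pnlip* were at 0 in every mouse, and the 1 that passed the filter, *Cela1*, was lower with INT-787 (log2 change -0.46, adjusted *p* = 0.0064).

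The promoters of the 4 histidine genes are shown because this is the one pathway of more than 1 gene in which every member was called higher with both drugs. Each line gives the 250 bases before the RefSeq transcript start, read 5′ to 3′ on the gene's strand (GRCm38.p6), with capitals marking a nuclear receptor half-site (AGGTCA, either strand), a TATA box (TATAAA, the gene's strand), or a CCAAT box (either strand). The window of *Amdhd1* held none of these motifs.
Hal (chr10:93488518-93488767, + strand): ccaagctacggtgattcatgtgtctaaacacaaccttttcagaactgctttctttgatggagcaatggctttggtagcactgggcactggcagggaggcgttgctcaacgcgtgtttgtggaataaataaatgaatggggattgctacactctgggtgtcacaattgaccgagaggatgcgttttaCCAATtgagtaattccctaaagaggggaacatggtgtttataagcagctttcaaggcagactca
Uroc1 (chr6:90333039-90333288, + strand): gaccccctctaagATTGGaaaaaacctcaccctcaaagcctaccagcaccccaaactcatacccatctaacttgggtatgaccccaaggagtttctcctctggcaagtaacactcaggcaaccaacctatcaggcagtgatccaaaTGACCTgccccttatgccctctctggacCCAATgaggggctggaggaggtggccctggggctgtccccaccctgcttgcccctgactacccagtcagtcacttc
Amdhd1 (chr10:93540034-93540283, - strand): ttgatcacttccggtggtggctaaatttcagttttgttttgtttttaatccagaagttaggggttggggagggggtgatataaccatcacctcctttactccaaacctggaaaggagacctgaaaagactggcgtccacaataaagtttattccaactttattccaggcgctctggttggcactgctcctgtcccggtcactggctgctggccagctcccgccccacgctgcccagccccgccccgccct
Ftcd (chr10:76575398-76575647, + strand): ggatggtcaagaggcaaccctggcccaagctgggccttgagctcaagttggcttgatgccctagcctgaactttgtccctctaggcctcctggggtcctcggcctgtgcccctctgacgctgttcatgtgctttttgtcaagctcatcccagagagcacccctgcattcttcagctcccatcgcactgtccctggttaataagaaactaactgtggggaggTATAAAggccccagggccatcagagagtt

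A RefSeq promoter whose start lay within 300 bases of the GENCODE start was at hand for 31 of the 45 genes. The half-site AGGTCA, on either strand, was found in 11 of the 31 windows (35.5%) and in 14.02% of 32851 mouse promoter windows of the same length. Those 11 were *Uroc1*, *Got1*, *Got2*, *Hgd*, *Aass*, *Bckdhb*, *Prodh2*, *Amt*, *Gnmt*, *Ahcy*, and *Bhmt*, of which *Got1*, *Bckdhb*, *Prodh2*, and *Amt* were not called in any comparison. The inverted repeat of 2 half-sites with 1 base between them (IR1), the arrangement to which FXR classically binds and which contains the half-site, was in 0 of 31 windows and in 0.00609% of all windows. The CCAAT box, on either strand, was in 19 of 31 windows (61.3%) against 33.8% of all windows, TATAAA, on the gene's strand, in 1 window, that of *Ftcd* (3.23% against 7.59%), and the cyclic AMP response element TGACGTCA in 0 of 31 (1.55% of all windows). These matches describe letters in a short window, and no binding was measured.

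Compared with vehicle, INT-787 raised 31 of the 45 genes (68.9%) and lowered 0, while 10.2% of all tested genes were called higher and 9.48% lower in that comparison. OCA raised 18 of 45 (40.0%) and lowered 0, against a background of 4.15% higher and 2.45% lower. With 1 mouse left out, the count was 28 to 33 with INT-787 and 11 to 21 with OCA. Over 38 alternative fits, 26 of the 31 INT-787 calls and 9 of the 18 OCA calls were kept in each. All 18 genes called with OCA were among the 31 called with INT-787. The 45 genes were chosen with earlier results of these data known, so these shares describe the list. They cannot test whether such enzymes respond more often than other genes. The median log2 fold change of the 45 genes was 0.53 with INT-787, a fold of 1.44, and 0.36 with OCA, a fold of 1.29, whereas the medians of all tested genes were -0.0010 and 0.018. At an unadjusted *p* under 0.05, 0 of the 45 were lower with either drug in edgeR, and DESeq2 also called 0 lower. Because both drugs were compared with the same vehicle mice, the drug comparisons with vehicle are not independent of each other. In RNA from whole liver, fewer cells of a type and less RNA per cell cannot be told apart.

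Together the 45 genes took up 1.19% of the raw counts in the median vehicle mouse (range 1.09% to 1.49%), 1.47% in the median OCA mouse (1.26% to 1.59%), and 1.71% in the median INT-787 mouse (1.47% to 2.01%). On this share the groups overlapped, with 8 of 9 INT-787 mice and 3 of 9 OCA mice above the highest vehicle mouse. On the TMM-scaled summed CPM the INT-787 and vehicle mice did not overlap, with the lowest INT-787 mouse at 14658 and the highest vehicle mouse at 14607. Per kilobase of exon, mean levels in vehicle mice differed widely among the genes, from 465 CPM per kilobase for *Mat1a*, 385 for *Hpd*, and 374 for *Gnmt* down to 3.86 for *Mccc1*, 3.04 for *Afmid*, and 2.59 for *Auh*. The spread between vehicle mice also differed, with a coefficient of variation from 6.74% for *Amdhd1* to 40.1% for *Sds*.

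**Figure D1:**
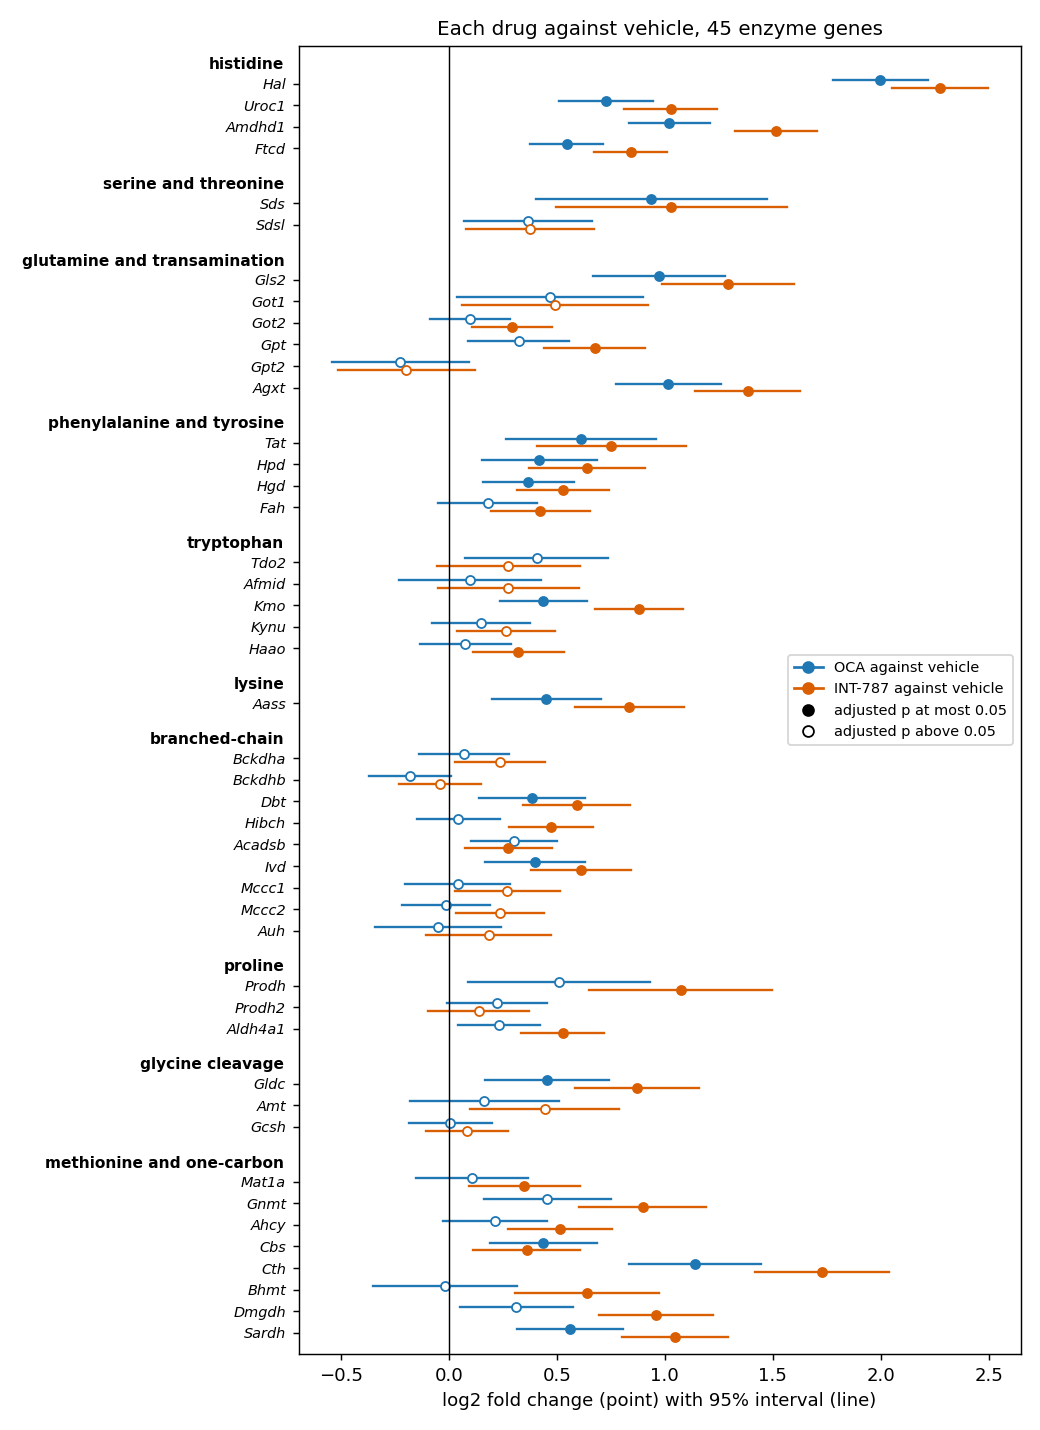
Log2 fold change against vehicle (x axis) of the 45 enzyme genes (y axis, by pathway) with OCA (blue) and INT-787 (orange). Lines are 95% intervals and filled points have an adjusted *p* of at most 0.05. Filled points number 18 for OCA and 31 for INT-787, all to the right of 0, with *Hal* farthest to the right for both drugs.

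Histidine catabolism had the highest median log2 change of the 10 pathways, 1.27 with INT-787 and 0.87 with OCA, and its 4 genes were called higher with both drugs. *Hal* (ENSMUSG00000020017, GRCm38 chr10:93488768-93519304) encodes histidine ammonia-lyase, which turns histidine into urocanate. Its level was 83.0 to 127 CPM (median 99.1) in vehicle mice, 311 to 578 CPM (median 409) in OCA mice, and 414 to 602 CPM (median 498) in INT-787 mice. Neither drug group overlapped the vehicle group. The log2 fold change of *Hal* was 2.27 (SE 0.11, adjusted *p* = 4.1e-16) with INT-787, a 4.84-fold rise, and 2.00 (SE 0.11, adjusted *p* = 1.5e-14) with OCA, a 3.99-fold rise. By *p* value *Hal* ranked 1 of 12580 genes in both comparisons with vehicle. *Amdhd1* (ENSMUSG00000015890, chr10:93523338-93540033), the imidazolonepropionase gene, lies 4033 bases from *Hal* on the opposite strand. It was at 113 to 139 CPM (median 122) in vehicle, 203 to 322 CPM (median 245) in OCA, and 281 to 435 CPM (median 361) in INT-787 mice, again with no overlap between vehicle and either drug. Its log2 fold change was 1.52 (SE 0.093, adjusted *p* = 1.4e-13) with INT-787 and 1.02 (SE 0.092, adjusted *p* = 2.3e-09) with OCA, and it ranked 4 and 10 by *p* value.

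*Uroc1*, urocanate hydratase, acts between these enzymes and was at 228 to 349 CPM (median 305) in vehicle, 347 to 618 CPM (median 547) in OCA, and 521 to 752 CPM (median 583) in INT-787 mice. All 9 INT-787 mice and 8 of 9 OCA mice were above the highest vehicle mouse. *Uroc1* rose by a log2 fold change of 1.03 (SE 0.11, adjusted *p* = 1.2e-08) with INT-787 and 0.73 (SE 0.11, adjusted *p* = 1.7e-05) with OCA. *Ftcd* encodes formimidoyltransferase cyclodeaminase, which moves the last carbon unit of histidine onto tetrahydrofolate. Its levels were 141 to 191 CPM (median 159.5), 173 to 285 CPM (median 229), and 258 to 338 CPM (median 287) in vehicle, OCA, and INT-787 mice. OCA replicate 8 was the one OCA mouse inside the vehicle range, and 0 INT-787 mice were. *Ftcd* rose by 0.84 (SE 0.083, adjusted *p* = 3.9e-09) with INT-787 and by 0.55 (SE 0.083, adjusted *p* = 3.2e-05) with OCA on the log2 scale.

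**Figure D2:**
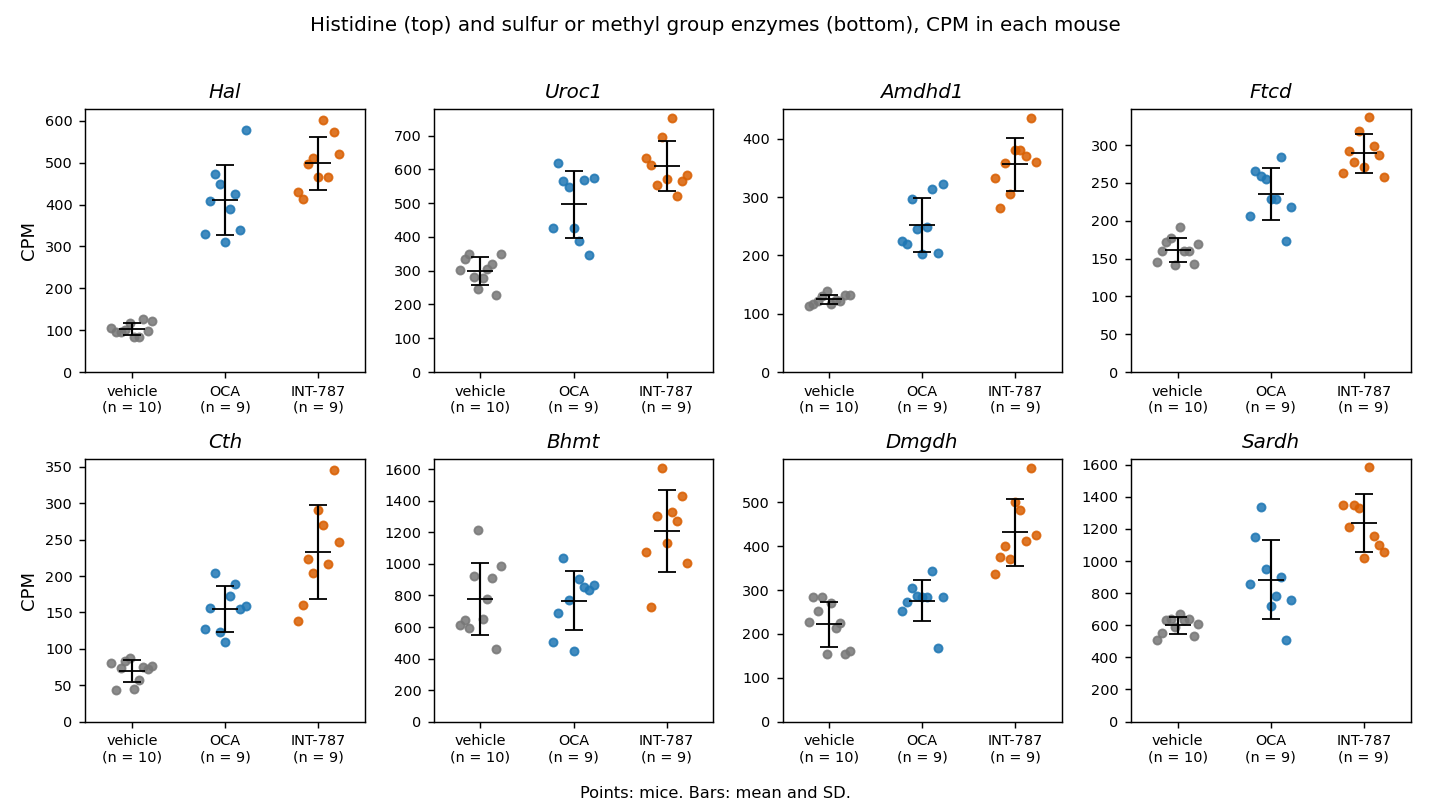
CPM (y axis, linear from 0) of 8 genes in each mouse, with vehicle (gray, n = 10), OCA (blue, n = 9), and INT-787 (orange, n = 9) on the x axis. Points are mice and black bars are mean and SD. *Hal*, *Amdhd1*, and *Cth* rise without overlap from vehicle to either drug, whereas the OCA mice of *Bhmt* lie within the vehicle range apart from the lowest OCA mouse, at 450.8 against 462.8 CPM.

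In the methionine, transsulfuration, and betaine pathway 8 of 8 genes were called higher with INT-787, and 3 of 8 with OCA (*Cbs*, *Cth*, and *Sardh*). *Cth* (ENSMUSG00000028179, chr3:157894248-157925077) encodes cystathionine gamma-lyase, which releases cysteine. It was at 43.8 to 88.0 CPM (median 74.8) in vehicle, 109 to 205 CPM (median 156) in OCA, and 138 to 346 CPM (median 224) in INT-787 mice. The vehicle mice lay below every mouse of both drug groups. The log2 fold change of *Cth* was 1.73 (SE 0.15, adjusted *p* = 3.4e-10) with INT-787, a 3.31-fold rise, and 1.14 (SE 0.15, adjusted *p* = 3.2e-06) with OCA, a 2.20-fold rise. *Cbs*, cystathionine beta-synthase, supplies cystathionine and was at 235 to 449 CPM (median 349.9), 348 to 652 CPM (median 471), and 293 to 623 CPM (median 465) in vehicle, OCA, and INT-787 mice. All 3 groups overlapped for *Cbs*. Its change was 0.36 (SE 0.12, adjusted *p* = 0.035) with INT-787 and 0.44 (SE 0.12, adjusted *p* = 0.024) with OCA, and both calls were lost without vehicle replicates 5 and 6 together (adjusted *p* = 0.064 and 0.053). The INT-787 call of *Cbs* was also lost when any of 8 of the 28 mice was left out, with upper-quartile in place of TMM scaling, and with the replicate number or neighboring sample numbers as a block in the model (highest adjusted *p* 0.086), and the OCA call without OCA replicate 4 and with the block of neighboring sample numbers (highest adjusted *p* 0.088).

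*Sardh* and *Dmgdh* encode the mitochondrial dehydrogenases of sarcosine and dimethylglycine, which hand their methyl carbons to folate. *Sardh* was at 511 to 671 CPM (median 619) in vehicle, 511 to 1337 CPM (median 859) in OCA, and 1018 to 1584 CPM (median 1214) in INT-787 mice. Every INT-787 mouse and 8 of 9 OCA mice exceeded the highest vehicle mouse, while OCA replicate 8 was near the lowest. *Sardh* rose by 1.05 (SE 0.12, adjusted *p* = 9.3e-08) with INT-787 and by 0.56 (SE 0.12, adjusted *p* = 0.0024) with OCA. *Dmgdh* (chr13:93674433-93752833) was at 154 to 284 CPM (median 226), 169 to 343 CPM (median 284), and 337 to 578 CPM (median 411) in the same order. Its INT-787 mice did not overlap the vehicle mice, and 5 of 9 OCA mice were above them. The log2 fold change of *Dmgdh* was 0.96 (SE 0.13, adjusted *p* = 1.6e-06) with INT-787 and 0.31 (SE 0.13, adjusted *p* = 0.17) with OCA.

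*Bhmt* (ENSMUSG00000074768, chr13:93616675-93637961), 36471 bases from *Dmgdh* on the opposite strand, encodes betaine-homocysteine methyltransferase. Its level was 463 to 1216 CPM (median 715) in vehicle, 451 to 1035 CPM (median 832) in OCA, and 728 to 1609.9 CPM (median 1273) in INT-787 mice. The highest vehicle value came from replicate 5, and 5 of 9 INT-787 mice were above it. *Bhmt* rose by 0.64 (SE 0.16, adjusted *p* = 0.0054) with INT-787, and its difference with OCA was -0.017 (SE 0.16, adjusted *p* = 0.98). Without vehicle replicate 5 these values were 0.73 (SE 0.16, adjusted *p* = 0.0012) and 0.076 (SE 0.16, adjusted *p* = 0.87). *Bhmt* is one of 9 of the 45 genes that share exon bases with a gene on the opposite strand (187 bases for *Bhmt*). The others are *Bckdha*, *Mccc1*, *Sds*, *Got2*, *Dmgdh*, *Sardh*, *Gls2*, and *Afmid*, and for none of these 8 was replicate 5 the highest vehicle mouse.

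*Gnmt*, glycine N-methyltransferase, uses S-adenosylmethionine to make sarcosine and was among the most abundant of the 45 genes. It was at 292 to 621 CPM (median 457) in vehicle, 385 to 746 CPM (median 653) in OCA, and 554 to 1198 CPM (median 817) in INT-787 mice. The medians rose from vehicle to OCA to INT-787, with overlap between all 3 groups. *Gnmt* rose by 0.90 (SE 0.14, adjusted *p* = 2.5e-05) with INT-787, and with OCA its change of 0.46 (SE 0.14, adjusted *p* = 0.0503) fell just outside the threshold. *Ahcy*, which splits S-adenosylhomocysteine, was at 158 to 241 CPM (median 199), 163 to 297 CPM (median 238), and 224 to 392 CPM (median 271). Its change was 0.52 (SE 0.12, adjusted *p* = 0.002) with INT-787 and 0.21 (SE 0.12, adjusted *p* = 0.35) with OCA. *Mat1a*, the liver S-adenosylmethionine synthetase, was at 1265 to 2143 CPM (median 1554), 1155 to 2282 CPM (median 1705), and 1231 to 2641 CPM (median 1959). The 3 groups overlapped for *Mat1a*, and its change was 0.35 (SE 0.13, adjusted *p* = 0.0493) with INT-787 and 0.11 (SE 0.13, adjusted *p* = 0.73) with OCA. The INT-787 call of *Mat1a* was lost when any of 20 of the 28 mice was left out.

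Among the glutamine and aminotransferase genes, 4 of 6 were called higher with INT-787 and 2 of 6, *Gls2* and *Agxt*, with OCA. *Agxt*, alanine-glyoxylate aminotransferase, detoxifies glyoxylate. It was at 50.5 to 74.1 CPM (median 57.2) in vehicle, 86.7 to 172 CPM (median 112) in OCA, and 114 to 209 CPM (median 145) in INT-787 mice. Vehicle mice overlapped neither drug group. Its log2 fold change was 1.38 (SE 0.12, adjusted *p* = 2.4e-10) with INT-787 and 1.02 (SE 0.12, adjusted *p* = 4.3e-07) with OCA. *Gls2*, liver glutaminase, frees ammonia from glutamine and was at 64.2 to 109.7 CPM (median 83.0), 109 to 227 CPM (median 164), and 119.7 to 311 CPM (median 208) in the 3 groups. All INT-787 mice and 8 of 9 OCA mice were above the vehicle range. *Gls2* rose by 1.29 (SE 0.15, adjusted *p* = 1.1e-07) with INT-787 and by 0.97 (SE 0.15, adjusted *p* = 4e-05) with OCA.

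The alanine aminotransferases showed unlike values. *Gpt*, the mainly cytosolic enzyme, was at 193 to 372 CPM (median 277) in vehicle, 243 to 427 CPM (median 332) in OCA, and 345 to 519.9 CPM (median 434) in INT-787 mice. Its change was 0.67 (SE 0.11, adjusted *p* = 5.8e-05) with INT-787 and 0.32 (SE 0.11, adjusted *p* = 0.091) with OCA. *Gpt2*, the mitochondrial enzyme, was at 417 to 1133 CPM (median 665), 478 to 909 CPM (median 579), and 409.8 to 881 CPM (median 657), and was one of 2 genes, with *Bckdhb*, whose point estimate was below 0 for both drugs. For *Gpt2* that estimate was -0.20 (SE 0.16, adjusted *p* = 0.41) with INT-787 and -0.23 (SE 0.16, adjusted *p* = 0.49) with OCA, so neither was called. *Got2*, mitochondrial aspartate aminotransferase, was at 408 to 577 CPM (median 472), 399 to 665 CPM (median 516), and 487 to 662 CPM (median 579). *Got2* changed by 0.29 (SE 0.091, adjusted *p* = 0.021) with INT-787 and was not called with OCA, at 0.096 (SE 0.091, adjusted *p* = 0.65). With upper-quartile scaling the INT-787 call of *Got2* was lost (adjusted *p* = 0.054). The cytosolic *Got1* varied more between mice, at 36.5 to 107 CPM (median 57.6), 53.6 to 142 CPM (median 74.9), and 41.4 to 148 CPM (median 84.1), and was not called with INT-787, at 0.49 (SE 0.21, adjusted *p* = 0.1), or with OCA, at 0.47 (SE 0.21, adjusted *p* = 0.22).

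*Sds*, serine dehydratase, converts serine to pyruvate and had the widest relative spread between vehicle mice of the 45 genes. It was at 53.0 to 167 CPM (median 82.5) in vehicle, 79.6 to 348 CPM (median 167) in OCA, and 90.1 to 380.0 CPM (median 172) in INT-787 mice. The groups overlapped, with 5 of 9 INT-787 and 4 of 9 OCA mice above the highest vehicle mouse. The rise was 1.03 (SE 0.26, adjusted *p* = 0.0052) with INT-787 and 0.94 (SE 0.26, adjusted *p* = 0.024) with OCA. The OCA call of *Sds* was lost without OCA replicate 7 (0.76, adjusted *p* = 0.076) and without vehicle replicates 5 and 6 together. Its neighbor *Sdsl*, 3715 bases away, was far lower per kilobase, at 6.38 against 55.4 CPM per kilobase in vehicle mice, and was not called with INT-787, at 0.37 (SE 0.15, adjusted *p* = 0.066), or with OCA, at 0.36 (SE 0.15, adjusted *p* = 0.15).

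The 4 phenylalanine and tyrosine genes, which act on the route from tyrosine to fumarate, were called higher with INT-787, and *Tat*, *Hpd*, and *Hgd*, though not *Fah*, with OCA. *Tat*, tyrosine aminotransferase, opens the route and is known to respond to glucocorticoids. It was at 199 to 531 CPM (median 369) in vehicle, 395 to 921 CPM (median 487) in OCA, and 387 to 853 CPM (median 598) in INT-787 mice, with overlap between all groups. The rise was 0.75 (SE 0.17, adjusted *p* = 0.0017) with INT-787 and 0.61 (SE 0.17, adjusted *p* = 0.023) with OCA. The OCA call of *Tat* was lost without OCA replicate 9 (0.48, adjusted *p* = 0.075), with the replicate number as a block, and without vehicle replicates 5 and 6 together. *Hpd*, hydroxyphenylpyruvate dioxygenase, was at 581 to 1029 CPM (median 815), 724 to 1453 CPM (median 1095), and 883 to 1746 CPM (median 1228). Above the highest vehicle mouse were 8 of 9 INT-787 mice and 5 of 9 OCA mice, and the changes were 0.64 (SE 0.13, adjusted *p* = 0.00061) and 0.42 (SE 0.13, adjusted *p* = 0.048). The OCA call of *Hpd* was lost when any of 20 of the 28 mice was left out. *Hgd*, homogentisate dioxygenase, was at 371 to 547 CPM (median 439), 420.1 to 725 CPM (median 563), and 514 to 826 CPM (median 579.7), with changes of 0.53 (SE 0.10, adjusted *p* = 0.00039) and 0.37 (SE 0.10, adjusted *p* = 0.026). Its OCA call was lost when any of 3 of the 28 mice (vehicle replicate 2 and OCA replicates 4 and 9) was left out (highest adjusted *p* over all alternatives 0.077). *Fah*, fumarylacetoacetate hydrolase, closes the route and was at 426 to 867 CPM (median 538), 506 to 803 CPM (median 691), and 638 to 884 CPM (median 781). Of the INT-787 mice, 2 of 9 were above the highest vehicle mouse, and the change of *Fah* was 0.42 (SE 0.11, adjusted *p* = 0.0074) with INT-787 and 0.18 (SE 0.11, adjusted *p* = 0.43) with OCA.

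In the kynurenine pathway of tryptophan, 2 of 5 genes were called with INT-787 and 1 of 5 with OCA. *Kmo*, kynurenine monooxygenase, was at 137 to 221 CPM (median 197) in vehicle, 195 to 366 CPM (median 254) in OCA, and 287 to 401 CPM (median 349) in INT-787 mice. INT-787 mice did not overlap vehicle mice, and 7 of 9 OCA mice were above them. *Kmo* rose by 0.88 (SE 0.10, adjusted *p* = 6.8e-08) with INT-787 and by 0.44 (SE 0.10, adjusted *p* = 0.0044) with OCA. *Haao*, which oxidizes hydroxyanthranilate, was at 172 to 328 CPM (median 235), 192 to 323 CPM (median 267), and 252 to 394 CPM (median 293), with changes of 0.32 (SE 0.10, adjusted *p* = 0.025) and 0.076 (SE 0.10, adjusted *p* = 0.78). The INT-787 call of *Haao* was lost without INT-787 replicate 8, without vehicle replicates 5 and 6 together, and with upper-quartile scaling (highest adjusted *p* 0.063). *Tdo2*, the dioxygenase that opens the pathway, was abundant and was not called with INT-787, at 0.28 (SE 0.16, adjusted *p* = 0.25), or with OCA, at 0.41 (SE 0.16, adjusted *p* = 0.15). *Tdo2* was at 629 to 1550.0 CPM (median 737) in vehicle, 763 to 1506 CPM (median 1045) in OCA, and 634 to 1617 CPM (median 924) in INT-787 mice. *Kynu* (kynureninase) and *Afmid* (kynurenine formamidase) were not called either, with log2 changes of 0.26 and 0.28 with INT-787 and 0.15 and 0.098 with OCA.

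*Aass*, aminoadipic semialdehyde synthase, catalyzes the opening steps of lysine breakdown. It was at 106 to 182 CPM (median 143) in vehicle, 158 to 249.99 CPM (median 176) in OCA, and 177 to 367 CPM (median 238) in INT-787 mice. Above the vehicle range were 8 of 9 INT-787 mice and 4 of 9 OCA mice. *Aass* rose by 0.84 (SE 0.12, adjusted *p* = 7.3e-06) with INT-787 and by 0.45 (SE 0.12, adjusted *p* = 0.021) with OCA. The OCA call was lost without OCA replicate 3 or 9, without vehicle replicates 5 and 6 together, and with a block of either the replicate number or neighboring sample numbers, with log2 changes no lower than 0.40 and adjusted *p* values up to 0.06.

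Of the branched-chain genes, 4 of 9 were called with INT-787 and 2 of 9 with OCA, and their median log2 changes were 0.27 and 0.044. Of the branched-chain ketoacid dehydrogenase complex, the core subunit *Dbt* was called with both drugs, while *Bckdha* and *Bckdhb* were called with neither. *Dbt* was at 24.4 to 46.2 CPM (median 36.4) in vehicle, 37.6 to 60.1 CPM (median 46.8) in OCA, and 41.0 to 75.3 CPM (median 48.6) in INT-787 mice. Its change was 0.59 (SE 0.12, adjusted *p* = 0.00058) with INT-787 and 0.38 (SE 0.12, adjusted *p* = 0.0499) with OCA, the latter just inside the threshold and lost when any of 20 of the 28 mice was left out. The log2 estimates with INT-787 and OCA were 0.24 and 0.070 for *Bckdha* and -0.042 and -0.18 for *Bckdhb*.

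*Ivd*, isovaleryl-CoA dehydrogenase of the leucine route, was at 54.4 to 87.0 CPM (median 74.1) in vehicle, 60.8 to 109.9 CPM (median 104) in OCA, and 83.5 to 147 CPM (median 117) in INT-787 mice, and rose by 0.61 (SE 0.11, adjusted *p* = 0.0002) and 0.40 (SE 0.11, adjusted *p* = 0.028) with INT-787 and OCA. The OCA call of *Ivd* was lost when any of 7 of the 28 mice was left out (highest adjusted *p* 0.071). *Hibch*, a hydrolase of the valine route, was at 37.7 to 54.3 CPM (median 46.8), 39.8 to 60.6 CPM (median 46.1), and 53.2 to 84.5 CPM (median 61.5). Here 8 of 9 INT-787 mice were above the vehicle range. *Hibch* rose by 0.47 (SE 0.095, adjusted *p* = 0.00049) with INT-787, and its estimate with OCA was 0.044 (SE 0.095, adjusted *p* = 0.88). *Acadsb*, a short branched-chain acyl-CoA dehydrogenase, was at 57.0 to 85.7 CPM (median 75.5), 71.0 to 127 CPM (median 86.8), and 68.2 to 110.3 CPM (median 94.0). Its estimates with the drugs were close, 0.28 (SE 0.098, adjusted *p* = 0.046) with INT-787 and 0.30 (SE 0.098, adjusted *p* = 0.062) with OCA, although the threshold lay between their adjusted *p* values, and the INT-787 call was lost when any of 13 of the 28 mice was left out. The later leucine enzymes *Mccc1*, *Mccc2*, and *Auh* were not called with either drug, with log2 changes of 0.27, 0.24, and 0.18 with INT-787 and 0.041, -0.013, and -0.050 with OCA.

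*Prodh*, proline dehydrogenase, was at 30.4 to 81.6 CPM (median 35.98) in vehicle, 33.5 to 93.3 CPM (median 60.8) in OCA, and 57.3 to 141 CPM (median 92.7) in INT-787 mice. The highest vehicle value came from replicate 4, and the next vehicle mouse was at 45.6 CPM. *Prodh* rose by 1.07 (SE 0.21, adjusted *p* = 0.00031) with INT-787, a 2.10-fold rise, and its change with OCA was 0.51 (SE 0.21, adjusted *p* = 0.16). Without vehicle replicate 4 the OCA change was 0.68 (adjusted *p* = 0.028) and passed the threshold. *Aldh4a1*, which completes the conversion of proline to glutamate, was at 141 to 198 CPM (median 177), 160.3 to 251 CPM (median 205), and 189.9 to 326 CPM (median 250.3), with changes of 0.53 (SE 0.094, adjusted *p* = 0.00011) and 0.23 (SE 0.094, adjusted *p* = 0.16). *Prodh2*, the hydroxyproline dehydrogenase gene, was not called, at 0.14 (SE 0.11, adjusted *p* = 0.44) and 0.22 (SE 0.11, adjusted *p* = 0.3).

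Of the glycine cleavage system, *Gldc*, the glycine decarboxylase, was called with both drugs. It was at 80.1 to 139.8 CPM (median 101) in vehicle, 83.0 to 213 CPM (median 146) in OCA, and 129.5 to 249.6 CPM (median 200.01) in INT-787 mice. Above the vehicle range were 8 of 9 INT-787 and 5 of 9 OCA mice. The rise of *Gldc* was 0.87 (SE 0.14, adjusted *p* = 2.7e-05) with INT-787 and 0.45 (SE 0.14, adjusted *p* = 0.046) with OCA, a call lost when any of 18 of the 28 mice was left out. Its partners *Amt* and *Gcsh*, the aminomethyltransferase and the lipoyl carrier protein, were not called, with log2 changes of 0.44 and 0.084 with INT-787 and 0.16 and 0.0072 with OCA.

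In the direct comparison at 30 mg/kg, INT-787 was higher than OCA for 8 of the 45 genes (17.8%) and lower for 0, while 2.19% of all tested genes were called higher and 3.19% lower. In edgeR 0 of the 45 were lower at an unadjusted *p* under 0.05, and DESeq2 called 13 higher and 0 lower. The 45 genes had a median log2 difference of 0.24, a fold of 1.18, and 41 of the 45 estimates were above 0. The median of all tested genes was -0.0065. These shares and medians are descriptive too, because the 45 genes were chosen with earlier results of these data known. For all 45 genes the INT-787 and OCA mice overlapped.

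Of the 8 genes, 4 belong to methionine and one-carbon metabolism. *Bhmt* was 1.58-fold higher with INT-787 than with OCA, with a log2 difference of 0.66 (SE 0.17, adjusted *p* = 0.017) and a 95% interval of 0.31 to 1.00. *Dmgdh* differed by 0.65 (SE 0.13, adjusted *p* = 0.0031), with 8 of 9 INT-787 mice above the highest OCA mouse. For *Cth* the log2 difference was 0.59 (SE 0.15, adjusted *p* = 0.018), and for *Sardh* it was 0.49 (SE 0.12, adjusted *p* = 0.016). These enzymes return methyl groups from betaine and its products or make cysteine. The histidine genes *Amdhd1* and *Ftcd* differed by 0.49 (SE 0.094, adjusted *p* = 0.0014) and 0.30 (SE 0.085, adjusted *p* = 0.033), *Kmo* by 0.44 (SE 0.10, adjusted *p* = 0.008), and *Hibch* by 0.43 (SE 0.097, adjusted *p* = 0.0067). Taking the comparisons side by side, *Amdhd1*, *Ftcd*, *Kmo*, *Cth*, and *Sardh* were called in all 3, although the direct call of *Ftcd* was lost when any of 8 of the 28 mice was left out (highest adjusted *p* 0.079), whereas *Hibch*, *Bhmt*, and *Dmgdh* were called with INT-787 and directly, not with OCA against vehicle.

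For the other 37 genes the direct difference missed the threshold, which does not show that the drugs act alike. The 95% interval lay above 0 for 15 of the 37, among them *Hal* (0.28, 0.059 to 0.49, adjusted *p* = 0.13), *Agxt* (0.37, 0.12 to 0.61, adjusted *p* = 0.068), *Gnmt* (0.44, 0.14 to 0.74, adjusted *p* = 0.073), and *Prodh* (0.56, 0.14 to 0.99, adjusted *p* = 0.11). These intervals are not adjusted for the number of genes tested. By *p* value the last of the 15, *Fah*, ranked 2225 of all 12580 genes, counting changes in either direction. The upper limit of *Prodh*, a fold of 1.99, was the highest of the 37, and the deepest lower limit was that of *Tdo2*, at -0.47. The widest of the 37 intervals were those of *Sds* (-0.45 to 0.63) and *Got1* (-0.41 to 0.46), and the intervals of *Acadsb* (-0.23 to 0.18), *Gcsh* (-0.12 to 0.27), and *Sdsl* (-0.29 to 0.31) were narrower and also included 0. In all, 13 genes were called with INT-787 and not with OCA against vehicle, and for 10 of those 13 the direct difference was not called, so a difference between the drugs was shown by that test for 3. The split of these 13 also moved with single mice: *Gpt*, *Acadsb*, *Prodh*, *Gnmt*, and *Dmgdh* passed with OCA when any of 2, 2, 1, 7, and 1 of the 28 mice was left out.

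**Figure D3:**
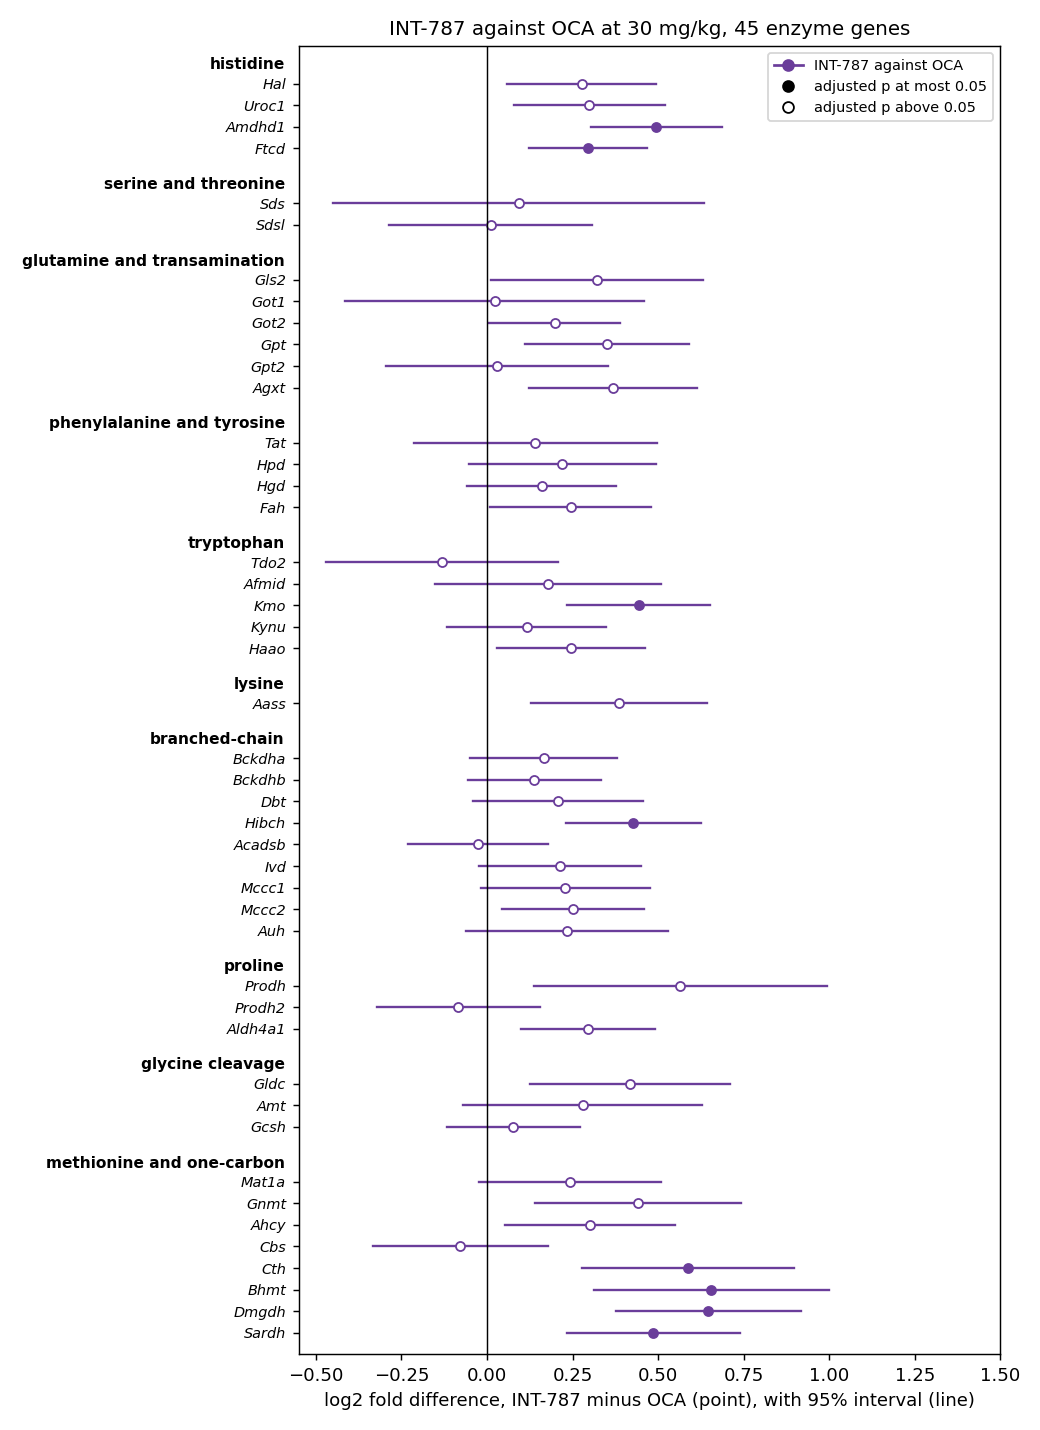
Log2 fold difference of INT-787 minus OCA at 30 mg/kg (x axis) for the 45 enzyme genes (y axis, by pathway). Lines are 95% intervals and filled points have an adjusted *p* of at most 0.05. The 8 filled points lie between 0.30 and 0.66, and 41 of the 45 points lie above 0.

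The rise was not equal in every mouse. For each mouse, the log2(CPM + 0.5) of each gene was set against the vehicle mean of that gene and the median over the 45 genes was taken, as a description with no test. This value was -0.14 to 0.28 in vehicle mice (median -0.013), -0.022 to 0.52 in OCA mice (median 0.33), and 0.29 to 0.83 in INT-787 mice (median 0.58). All 9 INT-787 mice and 6 of 9 OCA mice were above the highest vehicle mouse, replicate 4. OCA replicates 1, 5, and 8, at 0.025, 0.22, and -0.022, lay within the vehicle range. OCA replicate 8 was the lowest OCA mouse for 24 of the 45 genes and replicate 1 for 13, while vehicle replicate 4 was the highest vehicle mouse for 20. Even in OCA replicates 1 and 8, *Hal* lay above all vehicle mice. Leaving out OCA replicate 8 or 1 gave 21 or 20 genes called with OCA, and leaving out OCA replicate 9 gave 11.

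**Figure D4:**
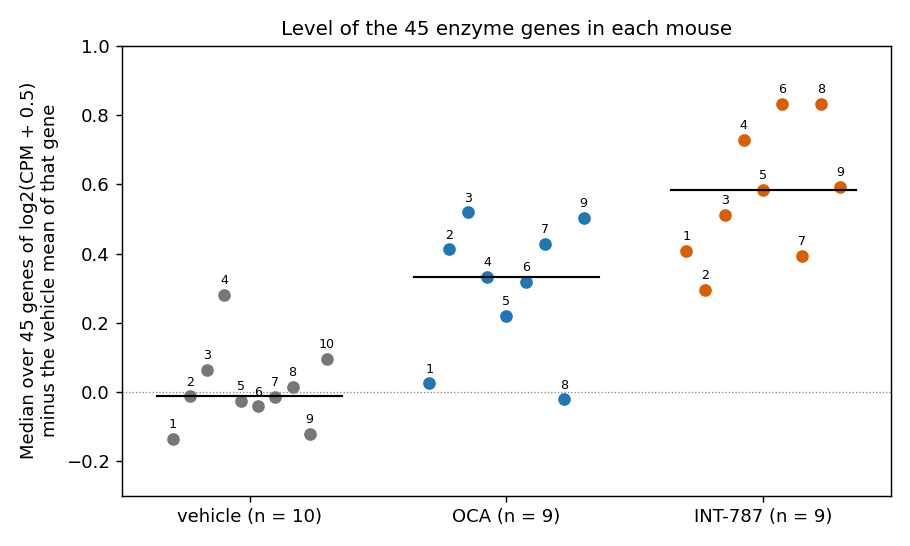
Median over the 45 enzyme genes of log2(CPM + 0.5) minus the vehicle mean of each gene (y axis) in each mouse, by group (x axis: vehicle, n = 10; OCA, n = 9; INT-787, n = 9). Numbers are replicate numbers and horizontal lines are group medians (-0.013, 0.33, and 0.58). OCA replicates 1, 5, and 8 lie within the range of the vehicle mice.

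Without vehicle replicate 5, 29 of the 45 genes were called with INT-787 and 17 with OCA. Without vehicle replicate 6 the counts were 29 and 15, and without both they were 27 and 11. The 7 OCA calls lost without both were *Sds*, *Tat*, *Hpd*, *Hgd*, *Aass*, *Gldc*, and *Cbs*, with adjusted *p* values from 0.052 to 0.084 and log2 changes that stayed above 0. The direct comparison gave 8 of 45 in each of these fits.

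The 14 genes called in no comparison were *Sdsl*, *Got1*, *Gpt2*, *Tdo2*, *Afmid*, *Kynu*, *Bckdha*, *Bckdhb*, *Mccc1*, *Mccc2*, *Auh*, *Prodh2*, *Amt*, and *Gcsh*. Their log2 changes ranged from -0.20 to 0.49 with INT-787, where 12 of 14 were above 0, and from -0.23 to 0.47 with OCA, where 10 of 14 were above 0. The widest 95% limits among them were -0.51 and 0.92 with INT-787. They include both subunits of methylcrotonyl-CoA carboxylase and 2 of the 3 glycine cleavage genes.

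Other enzymes of amino acid breakdown came from a list of 53 that excluded the 45 genes. Of 50 tested, 23 were higher and 3 lower with INT-787 (median log2 change 0.28), and 11 higher and 1 lower with OCA (0.12). *Sqor*, the mitochondrial sulfide quinone oxidoreductase, had a mean of 137 ± 12.8 CPM (SD, n = 10) in vehicle, 218 ± 29.4 in OCA, and 281 ± 27.8 in INT-787 mice, and rose by 1.04 (SE 0.081, adjusted *p* = 3e-11) with INT-787 and 0.67 (SE 0.081, adjusted *p* = 6.4e-07) with OCA. *Kyat3*, a kynurenine aminotransferase, rose by 1.29 (SE 0.15, adjusted *p* = 7.3e-08) and 0.47 (SE 0.15, adjusted *p* = 0.047), and differed between the drugs by 0.82 (SE 0.15, adjusted *p* = 0.00084). *Csad*, cysteine sulfinic acid decarboxylase of taurine synthesis, fell from 377 ± 66.0 CPM in vehicle mice to 86.9 ± 26.6 in OCA mice and 69.4 ± 44.5 in INT-787 mice. For *Csad* the log2 changes were -2.44 (SE 0.23, adjusted *p* = 1.6e-09) with INT-787 and -2.12 (SE 0.23, adjusted *p* = 1e-07) with OCA.

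Among 25 tested genes of folate and methyl group metabolism outside the 45, 8 were higher and 1 lower with INT-787, and 4 higher and 0 lower with OCA, where 7 passed an unadjusted *p* under 0.05 in either direction and DESeq2 called 4. The OCA count of 4 was 2 without vehicle replicate 2, OCA replicate 3, or vehicle replicate 7. *Aldh1l1*, which oxidizes formyltetrahydrofolate, rose from 731 ± 60.7 CPM in vehicle to 1174 ± 291 with OCA and 1915 ± 267 with INT-787. Its log2 change was 1.39 (SE 0.11, adjusted *p* = 8.6e-11) with INT-787 and 0.68 (SE 0.11, adjusted *p* = 0.0001) with OCA, and the drugs differed by 0.71 (SE 0.12, adjusted *p* = 0.00025). *Bhmt2*, a paralog of *Bhmt* that methylates homocysteine from S-methylmethionine, rose by 0.80 (SE 0.086, adjusted *p* = 2.4e-08) and 0.45 (SE 0.086, adjusted *p* = 0.00064). *Shmt2*, mitochondrial serine hydroxymethyltransferase, rose by 0.55 (SE 0.097, adjusted *p* = 9e-05) with INT-787 and was at 0.22 (SE 0.097, adjusted *p* = 0.2) with OCA.

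Of 25 amino acid transporters tested, 11 were higher and 4 lower with INT-787, and 8 higher and 1 lower with OCA. *Slc6a13*, a taurine and GABA carrier, rose by 1.37 (SE 0.099, adjusted *p* = 4.1e-12) with INT-787 and 0.86 (SE 0.098, adjusted *p* = 2.8e-07) with OCA. *Slc38a3*, the glutamine and histidine carrier of hepatocytes, rose by 1.04 (SE 0.13, adjusted *p* = 3.6e-07) and 0.73 (SE 0.13, adjusted *p* = 0.00024). *Slc25a15*, the mitochondrial ornithine carrier, rose by 0.65 (SE 0.095, adjusted *p* = 6.2e-06) and 0.59 (SE 0.095, adjusted *p* = 6.2e-05).

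From 23 regulators of amino acid catabolism, 9 were higher and 0 lower with INT-787, and 4 higher and 0 lower with OCA, a count that was 2 without OCA replicate 3, vehicle replicate 5, or vehicle replicate 9. *Nr0b2*, which encodes the FXR target SHP, rose by 1.62 (SE 0.19, adjusted *p* = 2e-07) with INT-787 and 1.17 (SE 0.19, adjusted *p* = 0.0001) with OCA. *Creb3l3* rose by 0.51 (SE 0.093, adjusted *p* = 0.00014) and 0.33 (SE 0.093, adjusted *p* = 0.025). *Gcgr*, the glucagon receptor, rose by 0.48 (SE 0.081, adjusted *p* = 5.4e-05) with INT-787 and was at 0.23 (SE 0.081, adjusted *p* = 0.095) with OCA. In the direct comparison edgeR called 0 of the 23 regulators, 2 passed an unadjusted *p* under 0.05, and DESeq2 called 1.

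Markers of cell types and zones moved as well, and their part in the results for the 45 genes was not tested. Of 10 periportal markers, which share their zone with much of amino acid catabolism, 7 were higher and 1 (*G6pc*) lower with INT-787, and 3 higher with OCA. Their summed level was 4577 to 6934 CPM in vehicle, 6108 to 10126 in OCA, and 7710.1 to 12092 in INT-787 mice. Of 10 pericentral markers, 1, *Cyp7a1*, was lower with each drug, and the list summed to 6207 to 11799 CPM, 3786 to 12235, and 5002 to 9350.3. General hepatocyte markers were higher for 2 of 9 with INT-787 and 3 of 9 with OCA, with median log2 changes of 0.066 and 0.22, and the estimates for *Hnf4a* were 0.066 and 0.064. These hepatocyte markers summed to 132451 to 225081 CPM in OCA and 119218 to 195775 in INT-787 mice. Stellate cell and myofibroblast markers fell with INT-787 for 7 of 12, and 1 of 12 rose with OCA. Their summed level was 1505 to 2726 CPM in vehicle, 1405 to 3630.0 in OCA, and 583 to 1368 in INT-787 mice. Macrophage markers were lower for 4 of 11 with INT-787 and summed to 1073 to 1613, 829.1 to 2158, and 719.8 to 1172 CPM. With INT-787, 3 of 8 sinusoidal endothelial markers, 2 of 6 cholangiocyte markers, and 1 of 7 lymphocyte and neutrophil markers were lower. The endothelial markers summed to 216 to 404, 192 to 298, and 144 to 294 CPM, the cholangiocyte markers to 486 to 803, 445 to 1629.7, and 339 to 540.1, and the lymphocyte and neutrophil markers to 19.3 to 30.6, 14.2 to 28.5, and 14.5 to 31.0. In the direct comparison INT-787 was lower than OCA for 6 of 12 stellate, 4 of 11 macrophage, 1 of 6 cholangiocyte, and 1 of 9 hepatocyte markers (*Serpina1c*, -0.64, adjusted *p* = 0.031, with a list median of -0.18), and higher for 2 of 10 periportal and 1 of 11 macrophage markers. With OCA edgeR called 0 of these macrophage, endothelial, cholangiocyte, and lymphocyte and neutrophil markers, where 1, 5, 1, and 2 passed an unadjusted *p* under 0.05 and DESeq2 called 0, 0, 0, and 1. Of 5 red cell genes, edgeR and DESeq2 called 0 with either drug, and 0 with INT-787 and 1 with OCA passed an unadjusted *p* under 0.05.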

How the data were processed

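The authors aligned the reads (sequencing kit of 75 cycles) with STAR to the mouse genome GRCm38 with Ensembl 89 annotation and deposited raw counts per gene and mouse. The libraries were made with a stranded mRNA kit, but the counting program and its strand setting are not given in the sources used here. Reads of a gene and an overlapping gene on the opposite strand may therefore not be told apart. Symbols and positions came from the reference annotation of the same build. The members and gene lists were chosen with earlier results of these data known.

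Counts were filtered with filterByExpr, scaled by TMM, and tested with edgeR 4.0.16 in 1 model of the 3 groups (R 4.3.3, 28 mice, 12580 genes, adjusted *p* at most 0.05). Alternatives used DESeq2 1.42.0, limma-voom (limma 3.58.1), other scalings and filters, the 2 compared groups alone, blocks, and left-out mice. The scripts were tested on simulated counts. Mice of a group are numbered by their labels, and *p* values measure the spread between these mice. Total counts per mouse (1009593 to 22421506) affect the precision of each value, and the SE also holds the spread between mice. All 45 genes are accounted for, and from each other list of enzymes, transporters, and regulators up to 3 genes with the smallest *p* among those called in any comparison are named.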

Additional observations from a re-analysis of the deposited data

Results flagged for a closer look

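In 4 of 135 groups of mice (45 genes in 3 groups), the most extreme mouse lay farther from its neighbor than Dixon's 95% critical value allows, and chance alone gives this in about 1 in 20 groups. Vehicle replicate 4 was the highest vehicle mouse for *Tdo2*, at 1550 CPM against 914 for the next mouse, and for *Prodh*, at 81.6 CPM against 45.6. Vehicle replicate 10 was the lowest vehicle mouse for *Acadsb*, at 57.0 CPM against 72.9. INT-787 replicate 8 was the highest INT-787 mouse for *Auh*, at 49.5 CPM against 33.7. The causes were not tested.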

How the results depend on the processing

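Across 38 alternatives, 26 of 31 calls with INT-787 against vehicle, 9 of 18 with OCA against vehicle, and 7 of 8 between the drugs were kept in each. With INT-787 the calls of *Got2*, *Haao*, *Acadsb*, *Mat1a*, and *Cbs* were lost under at least 1 alternative (highest adjusted *p* 0.054, 0.063, 0.11, 0.12, and 0.086), and leaving out any of 0, 1, 13, 20, and 8 of the 28 mice was enough, for *Haao* INT-787 replicate 8. With OCA those of *Sds*, *Tat*, *Hpd*, *Hgd*, *Aass*, *Dbt*, *Ivd*, *Gldc*, and *Cbs* were lost (highest adjusted *p* 0.076, 0.075, 0.12, 0.077, 0.06, 0.19, 0.071, 0.13, and 0.088), and 1, 1, 20, 3, 2, 20, 7, 18, and 1 of 28 mice were each enough, for *Sds* OCA replicate 7, for *Tat* OCA replicate 9, and for *Cbs* OCA replicate 4. Between the drugs *Ftcd* was lost without any of 8 of 28 mice (highest adjusted *p* 0.079). Among genes called in at least 1 comparison, calls were also gained: with OCA *Gpt* (without OCA replicate 1 or vehicle replicate 4), *Acadsb* (INT-787 replicate 2 or OCA replicate 8), *Prodh* (vehicle replicate 4), *Gnmt* (any of 7 mice), and *Dmgdh* (OCA replicate 8), with lowest adjusted *p* values of 0.019, 0.025, 0.028, 0.019, and 0.049 over the alternatives, and in the direct comparison *Hal*, *Gpt*, *Agxt*, *Aass*, *Prodh*, *Aldh4a1*, *Gldc*, and *Gnmt*, each without any of 1 to 3 mice (lowest adjusted *p* over the alternatives 0.035, 0.037, 0.021, 0.032, 0.045, 0.027, 0.026, and 0.036). The number of the 45 genes called ranged from 28 to 33 with INT-787, from 11 to 21 with OCA, and from 7 to 12 between the drugs when 1 mouse was left out. It ranged from 26 to 33, 11 to 19, and 7 to 13 under the other settings. The OCA count was 11 without OCA replicate 9 and without vehicle replicates 5 and 6 together. DESeq2 gave 13 between the drugs. Over all genes, 443 to 888 differed between the drugs when 1 mouse was left out, with 443 without OCA replicate 8. With upper-quartile scaling, 37.5% of all calls with INT-787 and 52.3% with OCA were higher, against 51.7% and 62.9% with TMM. The deviations of same-numbered mice correlated at -0.24 to 0.43 (median 0.077), over 0.1 in 11 of 27 pairs. Pairs of neighboring sample numbers had a median of 0.105, with 13 of 25 over 0.1. Across all pairs from different groups the median was 0.0042, with 63 of 261 over 0.1. Both numberings thus correlated more than all pairs did, though not in every pair. The main model used neither, and each was added as a block in an alternative. With the replicate number as a block 30 genes passed with INT-787, 14 with OCA, and 10 in the direct comparison. The replicate block lost the INT-787 calls of *Acadsb*, *Mat1a*, and *Cbs* and the OCA calls of *Tat*, *Aass*, *Dbt*, and *Gldc*. It added *Sdsl* and *Bckdha* with INT-787 and *Agxt* and *Gnmt* between the drugs. With a block of neighboring sample numbers the counts were 33, 16, and 9. That block lost the OCA calls of *Hpd*, *Hgd*, *Aass*, *Dbt*, *Ivd*, *Gldc*, and *Cbs*, the INT-787 call of *Cbs*, and the direct call of *Ftcd*, and added *Sdsl*, *Gpt*, *Tdo2*, *Prodh*, and *Gnmt* with OCA, *Sdsl*, *Got1*, and *Tdo2* with INT-787, and *Hal* and *Prodh* between the drugs. Values near 0 that were not called changed sign. With OCA, *Hibch* was -0.0177 with a block of neighboring sample numbers and -0.0019 to 0.0758 with 1 mouse left out, and *Bhmt* was 0.0417 with the replicate block, 0.058 without vehicle replicates 5 and 6, and -0.0815 to 0.0763 with 1 mouse left out. Between the drugs, *Acadsb* was 0.0174 with the block of neighboring numbers, and leaving out 1 mouse gave -0.0672 to 0.0439 for *Acadsb*, -0.0955 to 0.2726 for *Sds*, and -0.1445 to 0.0029 for *Cbs*. The causes were not tested.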
